A study of Rattus norvegicus with 15 samples.

Results

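The enzymes described here are those that make, use and recycle glutathione, those of the thioredoxin and peroxiredoxin systems, and those that remove superoxide and hydrogen peroxide, measured by RNA sequencing of rat lung. They were taken by gene symbol from the deposited table: glutathione S-transferases (Gst, Mgst), glutathione peroxidases (Gpx), peroxiredoxins (Prdx), genes whose symbol starts with Txn, superoxide dismutases (Sod1 to Sod3), gamma-glutamyltransferases and 2 Ggta genes (Ggt), glutaredoxins (Glrx), and Gsr, Gss and Cat. The rule found 74 of 22250 genes, and 59 of them reached 1 FPKM in at least 5 of the 15 libraries and were tested. FPKM is the number of sequenced fragments of a gene, scaled for its length and for the number of fragments mapped in the library, so levels can be compared between genes. The other 15 genes were too low to test and are given at the end. FPKM values and percentages with ± are means and SDs over the 5 libraries of a group (n = 5), and where 3 follow each other they are those of control, ALI and SJY, in that order. Log2 changes with ± carry limma's standard error (SE).

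All 15 libraries came from lungs of rats with the genotype WT, 5 in each group. The control group was labelled normal control. The ALI group had acute lung injury (ALI) from lipopolysaccharide (LPS, a component of the outer wall of some bacteria) given into the trachea. The SJY group had the same LPS and was also given Sang Ju Yin (SJY), a herbal formula of traditional Chinese medicine, into the stomach. No strain, age, sex, dose or time after LPS is given, and no group that had an instillation without LPS is named, so a difference between ALI and control may include that of the instillation itself. Nothing in the labels tells 1 animal per library from a pool of animals, so each p-value measures only the spread between the libraries, which may be technical.

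Superoxide, made by mitochondria and by the NADPH oxidase of phagocytes, is turned into hydrogen peroxide by superoxide dismutases. Catalase, the glutathione peroxidases and the peroxiredoxins then reduce the peroxide, the peroxidases with electrons from glutathione and most peroxiredoxins with electrons from thioredoxin, and NADPH restores both carriers through glutathione reductase and the thioredoxin reductases. Glutathione S-transferases couple glutathione to reactive compounds, and the fluid that lines the lung holds glutathione and secreted enzymes of this kind. Several of these genes are known targets of NRF2, a transcription factor that binds the antioxidant response element.

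The libraries differed little in depth: the smallest steps between low values put the deepest library (ALI 4) at 1.16 times the shallowest (SJY 4), and the number of reads itself is unknown. The library ALI 1 stood apart. Mitochondrial genes took 37.7% of its summed FPKM, against 8.31% to 14.1% in the other ALI libraries and 17.1% in SJY 1, the next highest, and it had the fewest genes at 1 FPKM or more (11865). The counts of called enzyme genes are given with and without ALI 1, as are the values of several genes that it moved. The median change of all 13457 tested genes was -0.12 (log2) in ALI against control and -0.11 in SJY against control, and median-of-ratios scaling moved both to 0.00. No tested enzyme gene changed the direction of a called difference under that scaling.

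In ALI lungs 20 of the 59 tested genes differed from control (limma, Benjamini-Hochberg adjusted p under 0.05), 13 higher and 7 lower. That is 33.9%, where 17.6% of all tested genes were called. By direction, 22% of these enzymes were higher, against 8.02% of all genes, and 11.9% were lower, against 9.56% of all genes, so that the share of lower genes was near that of all genes. In 17 genes (28.8%) the ALI and control libraries did not overlap, against 12.9% of all genes: 9 were higher (6.17% of all genes) and 8 lower (6.73%). The highest rises were those of the mitochondrial dismutase Sod2, the gamma-glutamyltransferase Ggt1, the glutaredoxin Glrx and the peroxiredoxin Prdx5. The largest falls were those of the transferases Gsta4, Gsta1, Gstt3 and Gsta3, the extracellular dismutase Sod3 and the peroxiredoxin Prdx6. Without ALI 1, 25 genes were called, 16 higher and 9 lower, with 17% of all genes called (9.11% higher and 7.89% lower). All but 1 (Txndc9) of the 20 were among them, and Prdx4, Gpx7, Gpx8 and Txndc5 (higher) and Gstm7 and Gpx3 (lower) were added.

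In SJY lungs 25 of the 59 genes differed from control, 20 higher and 5 lower. That is 42.4%, against 32.6% of all genes. Higher genes made up 33.9% of these enzymes and 14.6% of all genes, and lower genes made up 8.47% and 18.1%. In 22 genes (37.3%) the SJY and control libraries did not overlap, against 27.7% of all genes: 16 were higher (11.8% of all genes) and 6 lower (15.9%). Without ALI 1, which in the shared fit sets part of the spread, 36 genes were called, 25 higher and 11 lower, where 44.3% of all genes were called (17.8% higher and 26.5% lower). Both comparisons use the same 5 control libraries. Side by side, 11 genes were higher in both (Ggt1, Glrx, Glrx3, Gsto1, Gpx1, Prdx1, Prdx2, Prdx3, Prdx5, Sod2 and Txndc17) and 5 were lower in both (Gsta1, Gsta3, Gsta4, Gstt3 and Prdx6). Called in ALI only were Gss and Txndc9, which were higher, and Gstt1 and Sod3, which were lower. Called in SJY only, and all higher, were Glrx2, Gpx7, Gpx8, Gsr, Mgst1, Sod1, Txnl4a, Txn1 and Txn2. These were called in 1 comparison and not in the other, which does not show that ALI and SJY differ. That difference was tested directly and is described further on.

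**Figure D1:**
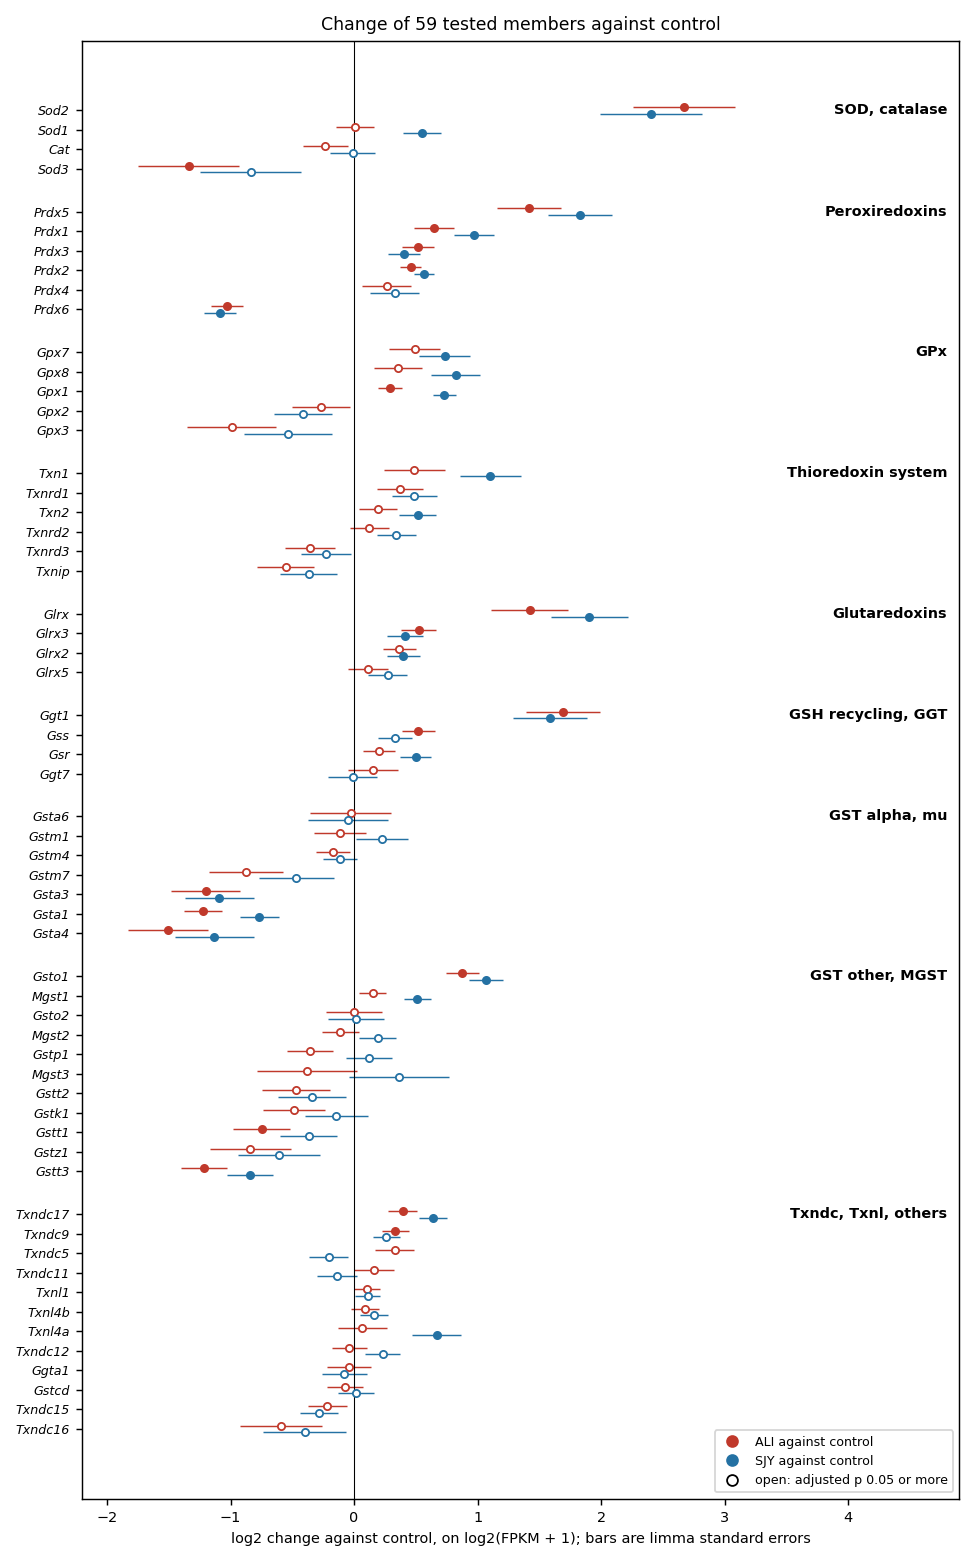
Log2 change of each of the 59 tested genes against control, on log2(FPKM + 1), in ALI (red) and SJY (blue); bars are limma standard errors, filled points are called at an adjusted p under 0.05 and open points are not. Sod2, Glrx, Ggt1 and Prdx5 lie farthest to the right and Gsta4, Sod3, Gsta1 and Gstt3 farthest to the left in ALI.

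The promoter windows of the genes that were higher in ALI were read for the core of the antioxidant response element, TGACNNNGC, on both strands (GCNNNGTCA when read from the other strand). Each window runs from 250 bases before to 50 bases after the annotated start of transcription, from RefSeq on the build GRCr8, which is not the build the authors mapped to. Of the 74 genes, 56 had a window that could be matched without doubt about the symbol, and 15 of them (26.8%) held the core, as did 13.1% of 27457 genes with a window (12.1% of 33469 windows). Of the 13 genes higher in ALI, 4 held it. The windows of those 4 are shown because they are the called genes with a match, and that of Gstp1 because it held the core and was called in no comparison. The matched bases are in capitals, and no other motif was searched.
Prdx1, chr5:135383656-135383955, plus strand: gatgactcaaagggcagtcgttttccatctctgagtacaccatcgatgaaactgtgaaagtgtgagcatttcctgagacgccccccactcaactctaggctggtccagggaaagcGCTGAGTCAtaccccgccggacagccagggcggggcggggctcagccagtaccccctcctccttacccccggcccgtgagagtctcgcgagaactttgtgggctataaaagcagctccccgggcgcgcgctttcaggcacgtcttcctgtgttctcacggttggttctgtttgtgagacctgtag
Prdx5, chr1:213531978-213532277, minus strand: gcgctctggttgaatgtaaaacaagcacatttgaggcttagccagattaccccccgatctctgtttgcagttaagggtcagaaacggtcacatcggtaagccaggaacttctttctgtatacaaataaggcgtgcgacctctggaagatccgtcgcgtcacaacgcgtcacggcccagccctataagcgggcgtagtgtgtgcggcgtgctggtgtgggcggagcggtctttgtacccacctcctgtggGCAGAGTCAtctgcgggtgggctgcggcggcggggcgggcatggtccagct
Sod2, chr1:50050119-50050418, minus strand: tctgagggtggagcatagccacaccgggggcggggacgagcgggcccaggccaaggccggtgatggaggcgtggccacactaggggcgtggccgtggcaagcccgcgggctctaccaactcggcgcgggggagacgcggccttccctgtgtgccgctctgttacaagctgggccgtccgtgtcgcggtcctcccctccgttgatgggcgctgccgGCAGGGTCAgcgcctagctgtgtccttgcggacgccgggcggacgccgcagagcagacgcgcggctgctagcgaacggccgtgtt
Txndc17, chr10:57331062-57331361, plus strand: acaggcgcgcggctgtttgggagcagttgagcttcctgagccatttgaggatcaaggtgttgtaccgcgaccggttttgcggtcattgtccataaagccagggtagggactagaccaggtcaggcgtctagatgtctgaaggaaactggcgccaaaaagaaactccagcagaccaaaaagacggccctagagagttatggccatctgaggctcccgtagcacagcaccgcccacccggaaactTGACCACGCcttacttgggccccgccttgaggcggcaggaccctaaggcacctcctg
Gstp1, chr1:210769656-210769955, minus strand: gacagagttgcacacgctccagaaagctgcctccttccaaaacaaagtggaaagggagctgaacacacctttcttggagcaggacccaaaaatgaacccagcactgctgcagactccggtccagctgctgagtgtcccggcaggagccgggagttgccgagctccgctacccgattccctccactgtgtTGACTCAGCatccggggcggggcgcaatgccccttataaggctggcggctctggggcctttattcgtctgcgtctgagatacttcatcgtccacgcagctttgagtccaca

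In Prdx1, Prdx5 and Sod2 the match was on the strand opposite to the gene, and in Txndc17 and Gstp1 on the gene's own strand. Its leftmost printed base lay at position -135 in Prdx1, -1 in Prdx5, -35 in Sod2, -7 in Txndc17 and -61 in Gstp1, counted from the start of transcription. Such a match describes the letters of the window. Whether a factor binds there was not measured. Among genes called in neither comparison against control, the core was also found in windows of Gpx2, Gstcd, Gstm7, Gstz1, Prdx4, Txndc11, Txndc5, Txnl4b and Txnrd1.

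Superoxide dismutases moved in opposite directions. Sod2, the manganese enzyme of the mitochondrial matrix, had 54.7, 56.0, 63.3, 73.6 and 80.5 FPKM in control 4 to 8. In ALI 1 to 5 it had 1771, 297, 364, 355 and 190 FPKM, and in SJY 1, 3, 4, 5 and 6 it had 296, 349, 385, 289 and 442 FPKM. Every LPS library was above every control, and ALI 1 was far above the rest. The log2 change was 2.67 ± 0.41 (SE) in ALI (adjusted p = 0.000549) and 2.40 ± 0.41 in SJY (adjusted p = 0.000688). Without ALI 1 the ALI mean was 301 ± 80.1 FPKM (SD, n = 4) and the log2 change was 2.15 (adjusted p = 3.27e-06).

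Sod3, the enzyme secreted into the extracellular matrix, was the one that fell in ALI. Its level was 92.6, 91.3, 86.0, 77.0 and 69.8 FPKM in control 4 to 8, 6.93, 42.7, 39.1, 57.9 and 48.3 FPKM in ALI 1 to 5, and 68.5, 43.7, 42.3, 53.3 and 30.2 FPKM in SJY 1, 3, 4, 5 and 6. Neither LPS group overlapped the controls, and ALI 1 had the lowest value. The log2 change was -1.34 ± 0.41 (SE) in ALI (adjusted p = 0.0345) and -0.84 ± 0.41 in SJY (adjusted p = 0.127). The ALI call was lost when any of control 4 to 8 was left out, with an adjusted p of 0.0522 to 0.0728. Leaving out ALI 1 gave a log2 change of -0.82 (adjusted p = 0.00686) in ALI and, since the fit shares its spread, made SJY pass as well (-0.84, adjusted p = 0.00153).

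Sod1, the copper and zinc enzyme of the cytosol, had a control mean of 196 ± 49.6 FPKM and an ALI mean of 193 ± 10.9 FPKM. In SJY 1, 3, 4, 5 and 6 it had 359, 302, 225, 259 and 278 FPKM. The log2 change in SJY against control was 0.55 ± 0.15 (SE; adjusted p = 0.0133), with 1 control library (control 4, 279 FPKM) inside the SJY range. Catalase (Cat), the peroxide-splitting enzyme of peroxisomes, passed no test: it had 92.5 ± 11.8, 80.2 ± 19.8 and 92.7 ± 19.8 FPKM.

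As shares of the 3 dismutases together, Sod2 made up 19.5 ± 4.95%, 61.9 ± 17.04% and 51.4 ± 7.69%. Sod1 made up 56.2 ± 5.78%, 31.0 ± 13.1% and 41.5 ± 5.94%, and Sod3 made up 24.3 ± 2.98%, 7.13 ± 4.15% and 7.03 ± 2.19%. The Sod2 share was 89.9% in ALI 1 and 43.3% to 59.9% in the other ALI libraries, where the highest control was at 25.3%. In these bulk samples a lower number of cells of a type and less RNA per cell cannot be told apart.

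**Figure D2:**
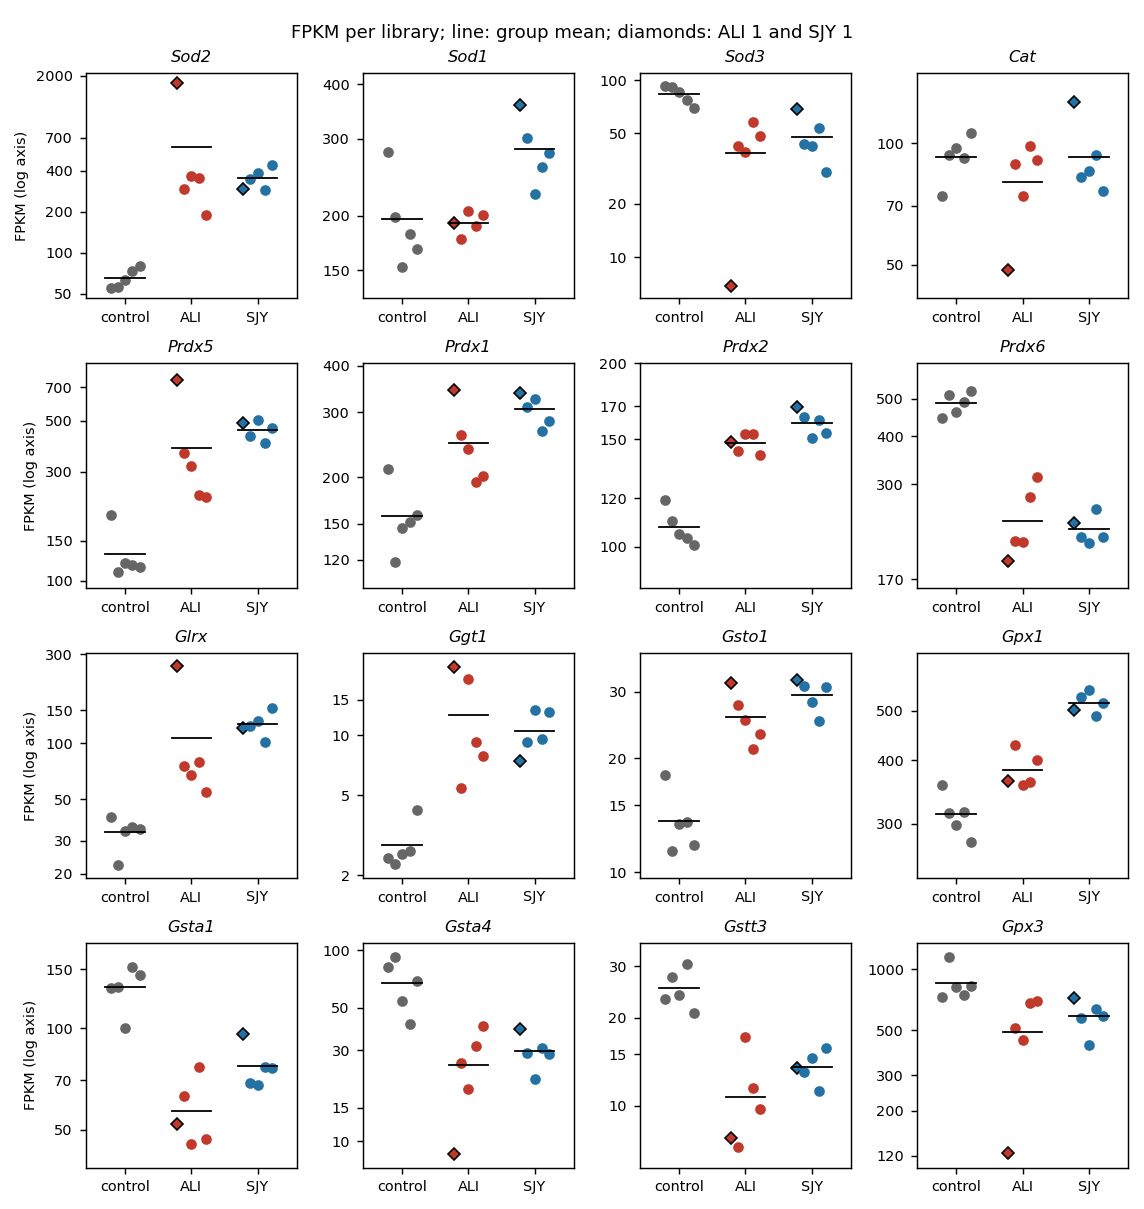
FPKM of 16 of the enzymes in each library (points), by group, with the group mean as a line, on a log axis in each panel; diamonds are ALI 1 and SJY 1. Sod2, Prdx5, Glrx, Ggt1 and Gsto1 lie higher in every ALI and SJY library than in every control, and Prdx6, Gsta1, Gsta4 and Gstt3 lie lower.

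Of the 6 peroxiredoxins, 4 rose and 1 fell in both LPS groups. Prdx5, which acts in mitochondria, peroxisomes and the cytosol, had 194, 110, 120, 117 and 114 FPKM in control 4 to 8. It had 756, 360, 317, 238 and 233 FPKM in ALI 1 to 5, and 487, 430, 505, 399 and 467 FPKM in SJY 1, 3, 4, 5 and 6. No LPS library reached down to the controls, and ALI 1 was again the highest. The log2 change was 1.42 ± 0.26 (SE) in ALI (adjusted p = 0.00198) and 1.83 ± 0.26 in SJY (adjusted p = 0.000152). With ALI 1 left out the ALI change was 1.14 (adjusted p = 0.000343).

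Prdx6 is the peroxiredoxin that uses glutathione in place of thioredoxin and also has phospholipase activity; it takes part in the turnover of surfactant lipids. Its level was 447, 511, 462, 491 and 525 FPKM in control 4 to 8, 190, 213, 212, 278 and 314 FPKM in ALI 1 to 5, and 238, 219, 212, 258 and 219 FPKM in SJY 1, 3, 4, 5 and 6. All 10 LPS libraries were below all 5 controls. This gave a log2 change of -1.03 ± 0.13 (SE) in ALI (adjusted p = 9.78e-05) and -1.09 ± 0.13 in SJY (adjusted p = 3.01e-05). The summed FPKM of 10 alveolar type II markers, cells in which Prdx6 is abundant, ran from 16637 to 25378 in control. It ran from 6148 (ALI 1) to 21195 in ALI and from 17846 to 20368 in SJY. Of the 10, 3 were called lower in ALI (9.56% of all genes), 5 in SJY (18.1% of all genes) and none higher. None of these 10 markers was listed at 0 throughout. Their part in the result was not tested.

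Prdx1, a thioredoxin-dependent peroxiredoxin of the cytosol, had 157 ± 33.5, 248 ± 59.97 and 305 ± 29.2 FPKM. Its log2 change was 0.65 ± 0.16 (SE) in ALI (adjusted p = 0.0147), where control 4 (211 FPKM) lay above the lowest ALI libraries, and 0.97 ± 0.16 in SJY (adjusted p = 0.000645). The ALI call was lost when limma was fitted on ALI and control alone (adjusted p = 0.0510). Prdx2, the cytosolic form known for its abundance in red cells, had 119, 110, 105, 103 and 101 FPKM in control 4 to 8, 149, 144, 153, 153 and 141 FPKM in ALI 1 to 5, and 170, 163, 151, 162 and 154 FPKM in SJY 1, 3, 4, 5 and 6. The groups did not overlap the controls, with log2 changes of 0.46 ± 0.08 (SE; adjusted p = 0.00176) and 0.57 ± 0.08 (adjusted p = 0.000181). ALI 1 did not stand apart for Prdx2. The summed FPKM of the red cell markers that were listed, mostly hemoglobin genes, ran from 370 to 6722 in the controls. It ran from 2134 to 7324 in ALI lungs and from 3559 to 10368 in SJY lungs. Of 6 tested markers, none was called in ALI by limma (3 at an unadjusted p under 0.05, as were 35% of all genes). In SJY 3 of these markers were higher (14.6% of all genes). Their part in the result was not tested.

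Prdx3, the thioredoxin-dependent form of mitochondria, had a log2 change of 0.52 ± 0.13 (SE) in ALI (adjusted p = 0.0130) and 0.40 ± 0.13 in SJY (adjusted p = 0.0256). The SJY call was lost without SJY 3, SJY 4, control 6 or control 7, with an adjusted p of 0.0521 to 0.0699. Prdx4, the form of the endoplasmic reticulum, had 30.9 ± 6.12, 38.4 ± 10.8 and 38.7 ± 4.16 FPKM and was not called. It had 19.6 FPKM in ALI 1 and 40.1 to 45.7 FPKM in the other ALI libraries, and without ALI 1 the log2 change in ALI was 0.49 (adjusted p = 0.0152).

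These changes altered the make-up of the peroxiredoxin transcripts. Prdx6 made up 52.0 ± 5.38%, 23.2 ± 7.89% and 18.7 ± 2.11% of their summed FPKM. Prdx5 made up 13.8 ± 2.78%, 33.0 ± 10.4% and 37.3 ± 2.13%, and Prdx1 made up 16.6 ± 2.50%, 22.5 ± 1.80% and 24.8 ± 1.36%. For Prdx6 the lowest control share was 42.9% and the highest in an LPS library 32.4%, so the groups did not overlap. The sum itself was 941 ± 61.0, 1097 ± 237 (1514 FPKM in ALI 1) and 1227 ± 58.99 FPKM.

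**Figure D3:**
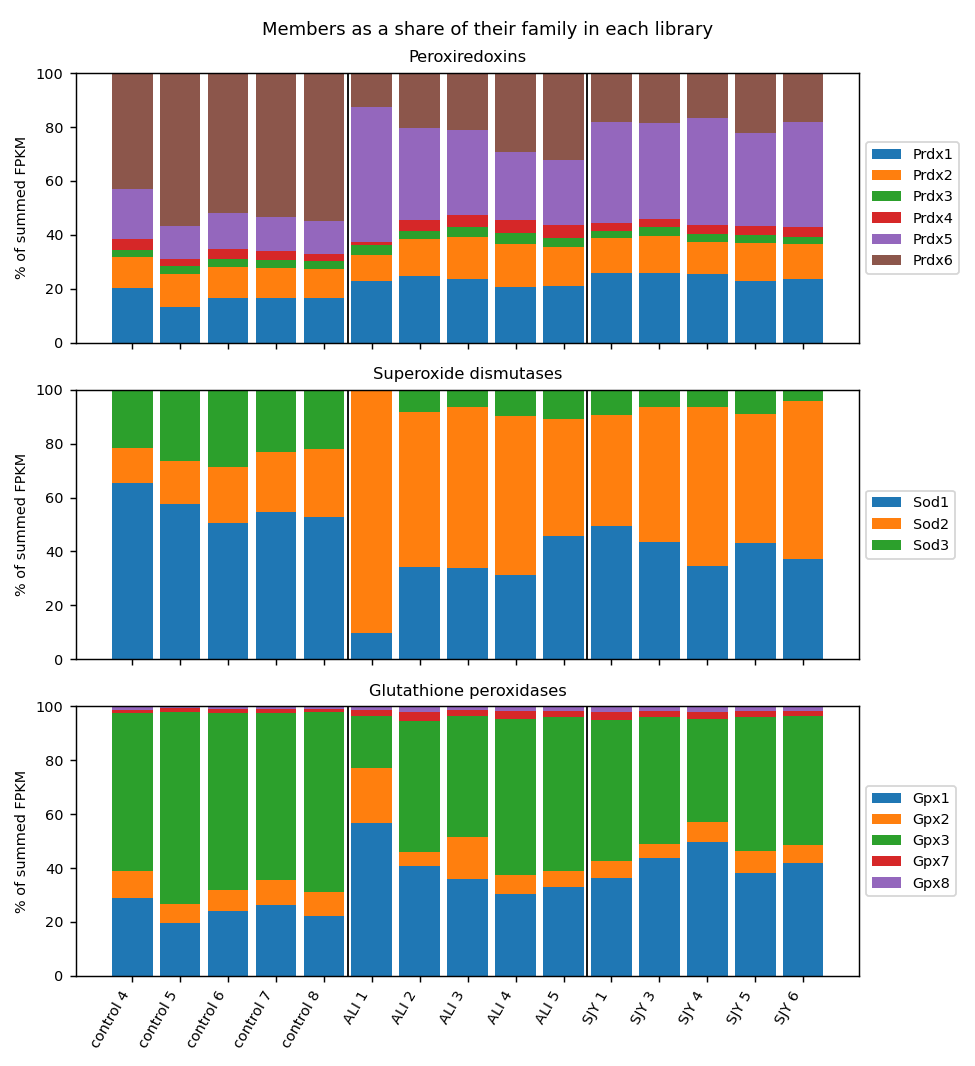
Stacked bars of each library show the percentage of the summed FPKM of a family held by each member, for the peroxiredoxins, the superoxide dismutases and the glutathione peroxidases. Prdx6 holds 42.9% to 56.7% of the peroxiredoxin sum in control and 12.5% to 32.4% in ALI, and Sod2 holds 12.8% to 25.3% of the dismutase sum in control and 43.3% to 89.9% in ALI.

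Among the glutathione peroxidases, the cytosolic selenoenzyme Gpx1 was called in both LPS groups. It had 358, 315, 299, 317 and 276 FPKM in control 4 to 8, 365, 428, 358, 362 and 401 FPKM in ALI 1 to 5, and 502, 533, 551, 490 and 517 FPKM in SJY 1, 3, 4, 5 and 6. Control and ALI met at the edge of their ranges, while SJY lay above all other libraries. This gave a log2 change of 0.29 ± 0.09 (SE) in ALI (adjusted p = 0.0451) and 0.73 ± 0.09 in SJY (adjusted p = 6.82e-05). The ALI call did not hold without ALI 2, ALI 3, ALI 5 or any of control 5 to 8 (adjusted p from 0.0536 to 0.112).

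Gpx3, the secreted plasma form, was the most abundant of the tested enzymes in control. Its level was 729, 1146, 817, 747 and 825 FPKM in control 4 to 8, 122.97, 511, 446, 686 and 695 FPKM in ALI 1 to 5, and 724, 572, 423, 634 and 588 FPKM in SJY 1, 3, 4, 5 and 6. Both LPS groups lay below the controls without overlap, yet neither difference passed: -0.99 ± 0.36 (SE; adjusted p = 0.0655) in ALI and -0.54 ± 0.36 (adjusted p = 0.265) in SJY. Without ALI 1 the values were -0.55 (adjusted p = 0.0452) in ALI and -0.54 (adjusted p = 0.0173) in SJY.

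Gpx7 and Gpx8, the forms of the endoplasmic reticulum, rose in SJY. Gpx7 had 18.2 ± 1.79, 27.2 ± 9.23 and 31.1 ± 5.53 FPKM, with a log2 change in SJY of 0.73 ± 0.21 (SE; adjusted p = 0.0140). Gpx8 had 12.4 ± 1.37, 16.7 ± 5.08 and 22.9 ± 4.63 FPKM, with a log2 change in SJY of 0.82 ± 0.20 (SE; adjusted p = 0.00587). In ALI 1 both were low, at 13.8 and 8.89 FPKM, and without that library both passed in ALI, at 0.70 (adjusted p = 0.00389) and 0.55 (adjusted p = 0.0159). Gpx2, the form known from the lining of the gut, had 110 ± 10.7, 98.8 ± 43.6 and 83.4 ± 14.0 FPKM and was not called. As a share of the family sum, Gpx3 made up 64.9 ± 4.86%, 45.5 ± 15.7% and 46.9 ± 5.28%, and Gpx1 made up 24.2 ± 3.52%, 39.4 ± 10.5% and 42.0 ± 5.25%.

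Among the glutathione S-transferases, the alpha class fell: 3 of its 4 tested members were lower in ALI and 3 in SJY. Gsta1 had 132, 133, 100.4, 152 and 144 FPKM in control 4 to 8, 51.9, 62.7, 45.3, 76.8 and 46.8 FPKM in ALI 1 to 5, and 96.2, 69.0, 68.0, 76.5 and 76.4 FPKM in SJY 1, 3, 4, 5 and 6. No LPS library reached the controls. Its log2 change was -1.22 ± 0.16 (SE) in ALI (adjusted p = 0.000107) and -0.77 ± 0.16 in SJY (adjusted p = 0.00215).

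Gsta4, known for its action on 4-hydroxynonenal, a product of lipid peroxidation, had 81.2, 92.4, 54.2, 41.3 and 68.8 FPKM in control 4 to 8. In ALI 1 to 5 it had 8.54, 25.6, 18.8, 31.7 and 40.0 FPKM, and in SJY 1, 3, 4, 5 and 6 it had 38.6, 28.9, 21.2, 30.9 and 28.6 FPKM. The highest LPS library lay just under the lowest control. This gave a log2 change of -1.51 ± 0.32 (SE) in ALI (adjusted p = 0.00532), -1.19 without ALI 1 (adjusted p = 0.00319), and -1.13 ± 0.32 in SJY (adjusted p = 0.0143).

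Gsta3 was low, with 4.34 ± 1.98, 1.30 ± 0.788 and 1.40 ± 0.517 FPKM. Its log2 changes were -1.20 ± 0.28 (SE, adjusted p = 0.00925) and -1.09 ± 0.28 (adjusted p = 0.00857), with 1 or more LPS libraries inside the control range. Gsta6 had 6.57 ± 1.29, 7.41 ± 4.68 and 6.41 ± 1.78 FPKM and was not called. Alpha class genes are close copies of each other that can share reads, and RefSeq lists the symbols Gsta1 and Gsta3 also as older names of other genes (Gsta2 and Gsta1), so which gene each line stands for is uncertain.

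Gstp1, the pi class enzyme, had the highest mean of the transferases in control, with 306, 244, 164, 196 and 175 FPKM in control 4 to 8, 128, 194, 167, 163 and 178 FPKM in ALI 1 to 5, and 320, 212, 186, 263 and 193 FPKM in SJY 1, 3, 4, 5 and 6. The 3 groups overlapped and no comparison was called. In the mu class, none of the 3 tested members was called by limma in any comparison. Gstm7, at 105 ± 10.2, 63.6 ± 26.2 and 76.3 ± 13.1 FPKM, had the only unadjusted p under 0.05 of the class (in ALI, with a log2 change of -0.87 ± 0.30 (SE) and an adjusted p of 0.0562), and its ALI libraries did not overlap the controls. ALI 1 had 18.7 FPKM, and without it the change was -0.48 (adjusted p = 0.0137). Gstm1 had 102 ± 22.8, 96.9 ± 35.1 and 117 ± 13.0 FPKM and Gstm4 had 14.7 ± 1.27, 12.9 ± 1.42 and 13.7 ± 2.63 FPKM.

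The theta class fell in part. Gstt3 had 23.2, 27.7, 24.0, 30.6 and 20.8 FPKM in control 4 to 8, 7.79, 7.23, 17.2, 11.5 and 9.73 FPKM in ALI 1 to 5, and 13.5, 13.1, 14.5, 11.3 and 15.7 FPKM in SJY 1, 3, 4, 5 and 6. Every LPS library was below every control, with log2 changes of -1.22 ± 0.19 (SE; adjusted p = 0.000540) and -0.84 ± 0.19 (adjusted p = 0.00373). Gstt1 fell in ALI by 0.75 ± 0.23 (log2; adjusted p = 0.0354), and SJY against control gave -0.37 ± 0.23 (adjusted p = 0.232). The Gstt1 value in ALI 1 was 4.16 FPKM. Leaving that library out brought the ALI change to -0.48 (adjusted p = 0.0187), and leaving out ALI 2, control 5, control 7 or control 8 ended the call (adjusted p from 0.0600 to 0.0857). Gstt2 had 5.60 ± 0.804, 4.18 ± 2.04 and 4.24 ± 0.802 FPKM and was not called.

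Gsto1, an omega class enzyme with glutaredoxin-like activity, rose in both LPS groups. It had 18.0, 11.4, 13.4, 13.6 and 11.8 FPKM in control 4 to 8, 31.6, 27.6, 25.2, 21.2 and 23.2 FPKM in ALI 1 to 5, and 32.1, 31.0, 28.2, 25.0 and 30.9 FPKM in SJY 1, 3, 4, 5 and 6. The LPS libraries all lay above the controls, with log2 changes of 0.88 ± 0.14 (SE; adjusted p = 0.000572) and 1.07 ± 0.14 (adjusted p = 5.39e-05). Its relative Gsto2 stood near 1 FPKM in all groups (0.907 ± 0.280, 0.943 ± 0.501 and 0.984 ± 0.573 FPKM). Gstz1, the zeta class enzyme of tyrosine breakdown, had 28.5 ± 4.32, 17.7 ± 9.13 and 18.6 ± 4.82 FPKM, the mitochondrial and peroxisomal Gstk1 had 16.2 ± 3.33, 11.9 ± 4.32 and 14.4 ± 1.75 FPKM, and Gstcd, named for its transferase-like domain, had 1.31 ± 0.310, 1.19 ± 0.285 and 1.34 ± 0.279 FPKM. None of these 3 was called by limma, and the only unadjusted p under 0.05 among them was that of Gstz1 in ALI (adjusted p = 0.0864). Summed over the cytosolic and kappa transferases, the level was 757 ± 108, 512 ± 99.7 (336 FPKM in ALI 1) and 652 ± 85.7 FPKM.

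Club cells and alveolar type I cells are epithelial types of the lung. The summed FPKM of 10 club cell markers, mostly Scgb1a1, ran from 10965 to 17139 in the controls, from 5386 to 9087 in ALI lungs and from 7868 to 13514 in SJY lungs; of 9 tested, 3 were lower and 1 higher in ALI and 1 was lower and 1 higher in SJY, where the sums overlapped the controls. That of 10 alveolar type I markers ran from 3355 to 4816 in control, 715 (ALI 1) to 2488 in ALI and 1750 to 2766 in SJY, and all 10 were lower in ALI and 8 in SJY. For ciliated cells the 9 listed markers summed to between 484 and 556 in the controls, between 241 and 404 in ALI lungs and between 402 and 508 in SJY lungs, and of 8 tested 2 were lower in ALI and 1 in SJY. Of all genes 8.02% were called higher and 9.56% lower in ALI, and 14.6% and 18.1% in SJY against control. None of these epithelial markers was listed at 0 in every library. Of 9 tested fibroblast markers, 3 were higher and none lower in each comparison with control. Of 7 tested endothelial markers, 1 was higher and 1 lower in each, and another listed one, Cldn5, was at 0 in every library. Their part in the result was not tested.

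Microsomal transferases sit in membranes and also act on lipid mediators. Mgst1 had 175, 166, 185, 207 and 204 FPKM in control 4 to 8, 227, 205, 203, 217 and 186 FPKM in ALI 1 to 5, and 333, 237, 266, 254 and 251 FPKM in SJY 1, 3, 4, 5 and 6. All SJY libraries were above all others. This gave a log2 change of 0.15 ± 0.11 (SE) in ALI (adjusted p = 0.334) and 0.51 ± 0.11 in SJY (adjusted p = 0.00295). Mgst2 had 50.1 ± 6.25, 46.9 ± 9.75 and 57.4 ± 7.84 FPKM and Mgst3 had 31.2 ± 6.58, 28.6 ± 15.5 and 40.2 ± 7.87 FPKM, with 4.96 FPKM of Mgst3 in ALI 1, and neither was called.

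Glutaredoxins use glutathione to reverse the binding of glutathione to proteins. Glrx, the cytosolic form, had 40.3, 22.4, 33.7, 35.6 and 34.8 FPKM in control 4 to 8, 257.5, 75.5, 67.8, 79.4 and 54.5 FPKM in ALI 1 to 5, and 121, 123.3, 132, 101 and 155 FPKM in SJY 1, 3, 4, 5 and 6. Each LPS library exceeded each control, and the ALI libraries other than ALI 1 lay between the controls and SJY. On the log2 scale the change was 1.42 ± 0.31 (SE) in ALI (adjusted p = 0.00643), 1.04 without ALI 1 (adjusted p = 0.000469), and 1.90 ± 0.31 in SJY (adjusted p = 0.000500).

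Glrx3, an iron-sulfur cluster protein, rose by 0.52 ± 0.15 in ALI (log2 ± SE; adjusted p = 0.0227) and by 0.41 ± 0.15 in SJY (adjusted p = 0.0400). Its ALI call was lost without control 5 (adjusted p = 0.0623) or control 6 (adjusted p = 0.0527). The SJY call was lost without SJY 1, 3, 4 or 6 or without control 5, 6, 7 or 8 (adjusted p from 0.0546 to 0.101). Glrx2, a mitochondrial form, rose by 0.40 ± 0.13 in SJY (adjusted p = 0.0334), a call that was lost without SJY 1, 4 or 6 or control 5, 6, 7 or 8 (adjusted p from 0.0530 to 0.0875). Glrx5, the other mitochondrial form, had 11.8 ± 2.27, 12.9 ± 3.28 and 14.3 ± 1.49 FPKM and was not called.

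Ggt1, the membrane enzyme that starts the breakdown of glutathione outside the cell, was low in control and rose in both LPS groups. It had 2.42, 2.28, 2.54, 2.65 and 4.24 FPKM in control 4 to 8, 21.8, 5.44, 19.0, 9.22 and 7.90 FPKM in ALI 1 to 5, and 7.40, 9.29, 13.4, 9.61 and 13.1 FPKM in SJY 1, 3, 4, 5 and 6. The LPS libraries did not overlap the controls, and ALI spanned the widest range. Its log2 change was 1.69 ± 0.30 (SE) in ALI (adjusted p = 0.00154) and 1.59 ± 0.30 in SJY (adjusted p = 0.00131). Ggt7 had 1.58 ± 0.289, 1.98 ± 0.992 and 1.57 ± 0.377 FPKM and was not called. Ggta1, a galactosyltransferase by name, had 40.5 ± 2.30, 41.1 ± 11.9 and 38.3 ± 2.39 FPKM and was not called. RefSeq also lists its symbol as an older name of Ggt5 and of Ggta1l1, so whether this line is an enzyme of glutathione is uncertain.

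Glutathione synthetase (Gss), which joins the last amino acid to glutathione, had 7.57, 6.99, 7.61, 8.71 and 7.61 FPKM in control 4 to 8 and 14.9, 11.4, 11.0, 11.0 and 9.49 FPKM in ALI 1 to 5, with no overlap. Its log2 change was 0.52 ± 0.14 (SE) in ALI (adjusted p = 0.0167) and 0.33 ± 0.14 in SJY (adjusted p = 0.0735). Glutathione reductase (Gsr), which returns oxidised glutathione to its reduced form, had 39.2, 33.1, 40.5, 45.9 and 38.9 FPKM in control 4 to 8, 61.3, 37.9, 40.2, 49.5 and 41.2 FPKM in ALI 1 to 5, and 57.2, 58.2, 54.7, 50.3 and 59.9 FPKM in SJY 1, 3, 4, 5 and 6. The ALI libraries other than ALI 1 lay near the controls, and SJY lay above the controls. Gsr changed by 0.20 ± 0.13 (log2 ± SE) in ALI (adjusted p = 0.271) and rose by 0.50 ± 0.13 in SJY (adjusted p = 0.00848).

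Thioredoxin itself, the small protein that passes electrons to peroxiredoxins, was called in SJY only. Txn1, the cytosolic form, had 374, 196, 197, 224 and 192 FPKM in control 4 to 8, 588, 367, 246, 236 and 270 FPKM in ALI 1 to 5, and 695, 476, 458, 455 and 415 FPKM in SJY 1, 3, 4, 5 and 6. In each group 1 library was far above the rest (control 4, ALI 1 and SJY 1), and SJY lay above all controls. On the log2 scale the change was 0.49 ± 0.25 (SE) in ALI (adjusted p = 0.171; 0.27 without ALI 1, adjusted p = 0.387) and 1.103 ± 0.25 in SJY (adjusted p = 0.00394).

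Txn2, the mitochondrial thioredoxin, had 48.0 ± 6.12, 56.4 ± 16.8 (86.1 FPKM in ALI 1) and 68.8 ± 6.53 FPKM. It rose by 0.51 ± 0.15 (log2 ± SE) in SJY (adjusted p = 0.0190), and the call was lost without control 8 (adjusted p = 0.0513). The 3 thioredoxin reductases, selenoenzymes that recharge thioredoxin with NADPH, were not called by limma against control. Txnrd1, the cytosolic form, had 34.3 ± 4.902, 46.0 ± 14.0 and 48.7 ± 8.28 FPKM, and its SJY change of 0.49 ± 0.18 (SE) had an adjusted p of 0.0521. Txnrd2 had 7.23 ± 0.866, 8.10 ± 1.82 and 9.46 ± 1.36 FPKM and Txnrd3 had 6.03 ± 0.594, 4.70 ± 1.60 and 5.06 ± 0.925 FPKM. At an unadjusted p under 0.05, none of the 3 passed in ALI and 2 (Txnrd1 and Txnrd2) in SJY, against 35% and 43.6% of all genes. Txnip, the protein that binds and blocks thioredoxin, had 591, 570, 632, 593 and 599 FPKM in control 4 to 8, 187, 550, 437, 484 and 505 FPKM in ALI 1 to 5, and 396, 589, 485, 503 and 371 FPKM in SJY 1, 3, 4, 5 and 6. ALI did not overlap control, but the difference was not called (-0.56 ± 0.23 (SE), adjusted p = 0.105), and without ALI 1 it was -0.28 (adjusted p = 0.145).

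Of 10 tested thioredoxin-like and thioredoxin domain proteins, 2 rose in ALI and 2 in SJY. Txndc17, a small cytosolic protein with a thioredoxin fold, had 28.6 ± 2.97, 37.7 ± 2.47 and 45.3 ± 8.43 FPKM, and both LPS groups lay above control. It rose by 0.39 ± 0.12 (log2 ± SE) in ALI (adjusted p = 0.0296), a call that was lost without ALI 2 or any of control 5 to 8 (adjusted p from 0.0625 to 0.0715), and by 0.64 ± 0.12 in SJY (adjusted p = 0.00103). Txndc9 rose by 0.33 ± 0.11 in ALI (adjusted p = 0.0481), and leaving out ALI 1, 3 or 4 or control 4, 5, 6 or 7 ended the call (adjusted p from 0.0581 to 0.115). Txnl4a, a spliceosome protein with a thioredoxin fold, rose by 0.67 ± 0.20 in SJY (adjusted p = 0.0180), which was lost without control 6 (adjusted p = 0.0509). The other 7 (Txndc5, Txndc11, Txndc12, Txndc15, Txndc16, Txnl1 and Txnl4b) were not called against control, with log2 changes from -0.59 (Txndc16) to 0.33 (Txndc5) in ALI and from -0.40 (Txndc16) to 0.23 (Txndc12) in SJY.

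Setting SJY against ALI compares lungs given LPS with and without the herbal formula. No LPS group given a vehicle into the stomach is named, so a difference may include that of the dosing itself. None of the 59 genes was called by limma, where 0.00743% of all genes (1 of 13457) was. At an unadjusted p under 0.05, 10 of the 59 (16.9%) passed, 9 higher and 1 lower, against 11.8% of all genes. In 4 genes (6.78%), Gpx1, Sod1, Mgst1 and Txnl4a, all 5 SJY libraries lay above all 5 ALI libraries, against 3.23% of all genes without overlap in either direction (2.24% higher and 0.988% lower). Their log2 changes were 0.44 ± 0.09 (SE; adjusted p = 0.151) for Gpx1, 0.54 ± 0.15 (adjusted p = 0.223) for Sod1, 0.36 ± 0.11 (adjusted p = 0.241) for Mgst1 and 0.60 ± 0.20 (adjusted p = 0.269) for Txnl4a. The median over the 59 genes was 0.19 and 45 of them had a positive value, beside a median of 0.03 and 7384 positive values over all 13457 genes. This comparison and that of ALI with control share the ALI libraries.

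The result of SJY against ALI depended on ALI 1. Without it, 5 of the 59 genes were called, where 1.35% of all genes was (0.885% higher and 0.461% lower). Glrx (log2 change 0.86, adjusted p = 0.0209), Txn2 (0.48, adjusted p = 0.0364) and Gpx1 (0.42, adjusted p = 0.0438) were higher in SJY, and Txndc5 (-0.69, adjusted p = 0.0131) and Txndc11 (-0.47, adjusted p = 0.0471) were lower. Txndc5 and Txndc11 are proteins of the endoplasmic reticulum with thioredoxin domains. With SJY 1 left out as well, a choice made after seeing the data, 2 genes were called, Glrx (0.87, adjusted p = 0.0492) and Txndc5 (-0.64, adjusted p = 0.0332), where 0.432% of all genes was called (0.335% higher and 0.0969% lower). Weighting each library by its fit (limma's array weights) gave 10 calls, 8 higher (Sod1, Txn2, Mgst1, Txn1, Glrx, Gsr, Prdx5 and Gpx1) and 2 lower (Txndc11 and Txndc5), where 3.55% of all genes was called (2.21% higher and 1.35% lower).

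Glrx in the 4 other ALI libraries ran from 54.5 to 79.4 FPKM, below the lowest SJY library (101 FPKM), while ALI 1 (257.5 FPKM) exceeded the highest (155 FPKM). Txndc5 had 47.3 FPKM in ALI 1 and 65.5, 100.1, 73.0 and 90.0 FPKM in ALI 2 to 5, against 44.0, 50.7, 54.9, 52.0 and 48.9 FPKM in SJY 1, 3, 4, 5 and 6, and 52.6 to 59.8 FPKM in control. Without ALI 1, Txndc5 was higher in ALI than in control (log2 change 0.48, adjusted p = 0.0101). Txndc11 had 11.9 FPKM in ALI 1, 18.5 to 25.7 FPKM in the other ALI libraries and 13.1 to 17.1 FPKM in SJY.

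**Figure D4:**
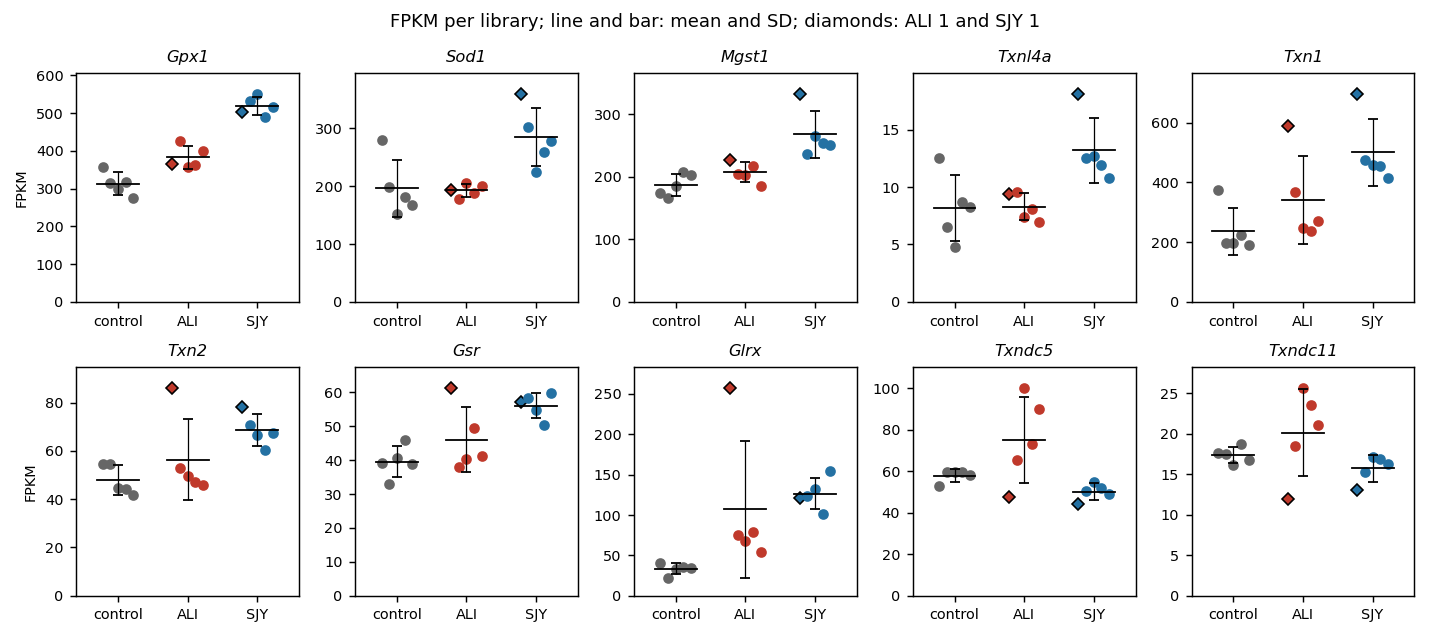
FPKM in each library of 10 of the genes that were called in SJY against ALI under some setting, or did not overlap between the groups; lines and bars are means and SDs of 5 libraries, diamonds are ALI 1 and SJY 1. Gpx1, Sod1, Mgst1 and Txnl4a lie higher in every SJY library than in every ALI library, and for Glrx, Txn2, Txndc5 and Txndc11 the ALI 1 diamond lies on the other side of SJY from the other ALI libraries or within SJY.

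Neutrophils carry the NADPH oxidase that makes superoxide, and their markers were higher in both LPS groups than in control. The summed FPKM of 9 neutrophil markers, of which S100a8, S100a9 and Lcn2 were the most abundant, ran from 174 to 264 in control, from 2291 to 7350 in ALI 2 to 5, and from 8363 to 14778 in SJY, and reached 23153 in ALI 1. All 9 were called higher in both comparisons with control, where 8.02% of all genes were higher in ALI and 14.6% in SJY. None was listed at 0 throughout, and none was called in SJY against ALI (0.00743% of all genes). At an unadjusted limma p under 0.05, 6 passed there, each higher in SJY, against 11.8% of all genes in either direction. Without ALI 1, 6 of the 9 were called higher in SJY against ALI, as were 0.885% of all genes. ALI 1, the library with the highest sum, also had the highest Sod2, Prdx5, Glrx and Ggt1 of all libraries. With all libraries kept, the log2 changes in SJY against ALI were -0.27 for Sod2 and -0.10 for Ggt1. They were 0.41 for Prdx5 and 0.48 for Glrx, and limma called none of them. Ggt1 in ALI 3 (19.0 FPKM) was above its highest SJY library (13.4 FPKM). The 8 listed alveolar macrophage markers summed to between 172 and 245 FPKM in the controls. The sums were between 291 and 429 FPKM in ALI lungs and between 331 and 445 FPKM in SJY lungs. Of these 8, 4 were higher and 1 lower in ALI, and 5 were higher and 1 lower in SJY against control. Lower genes made up 9.56% of all genes in ALI and 18.1% in SJY. Of 9 tested markers of monocytes and recruited macrophages, 5 were higher and none lower in each comparison with control. Their summed FPKM ran from 12450 to 18362 in control, from 4685 (ALI 1) to 18138 in ALI and from 11249.5 to 15950 in SJY. The part of these cells in the rises was not tested.

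Other genes of the same pathways were taken from lists. Of 16 tested genes of glutathione supply and export, 2 were higher and 2 lower in ALI, and 4 were higher and 3 lower in SJY against control. Among all tested genes, 8.02% were higher and 9.56% lower in ALI, and 14.6% and 18.1% in SJY against control. Gclm, the regulatory subunit of the enzyme that limits glutathione synthesis, had 20.1 ± 3.26, 13.3 ± 2.68 and 11.4 ± 2.03 FPKM, with log2 changes of -0.57 (adjusted p = 0.0256) and -0.78 (adjusted p = 0.00254). Anpep, an aminopeptidase that acts on products of glutathione breakdown, fell by 0.76 in ALI (log2; adjusted p = 0.0187) and by 0.65 in SJY (adjusted p = 0.0233). Cndp2, a dipeptidase, rose by 0.51 in ALI (adjusted p = 0.0166). Slc25a39, the carrier of glutathione into mitochondria, rose by 0.38 in ALI (adjusted p = 0.0229) and by 0.53 in SJY (adjusted p = 0.00212), and Chac2, an enzyme that degrades glutathione, rose by 0.45 in SJY (adjusted p = 0.0455).

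Of 15 tested genes of NADPH supply, 6 were higher and none lower in ALI, and 6 were higher and none lower in SJY against control. The shares of all genes were 8.02% higher and 9.56% lower in ALI, and 14.6% and 18.1% in SJY against control. Mthfd2, a mitochondrial enzyme of folate metabolism, had 5.84 ± 1.16, 14.7 ± 5.89 and 13.1 ± 2.32 FPKM, with log2 changes of 1.14 in ALI (adjusted p = 0.00267) and 1.04 in SJY (adjusted p = 0.00259).

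Of 17 tested genes of NRF2 and its partners and targets, 1 was higher and 6 lower in ALI, and 2 were higher and 5 lower in SJY. For all genes the shares were 8.02% higher and 9.56% lower in ALI, and 14.6% and 18.1% in SJY against control. Hmox1, heme oxygenase, had 35.9 ± 4.85, 119 ± 131 (353 FPKM in ALI 1) and 98.3 ± 21.4 FPKM, with log2 changes of 1.23 (adjusted p = 0.0417) and 1.41 (adjusted p = 0.0133). Without ALI 1, Hmox1 had 60.2 ± 10.8 FPKM in ALI (SD, n = 4) and a log2 change of 0.72 (adjusted p = 0.00587). Akr1b8, an aldo-keto reductase, rose by 1.23 in SJY (adjusted p = 0.0146). Aox1, an aldehyde oxidase, fell by 1.84 (log2) in ALI (adjusted p = 0.00395) and by 1.53 in SJY (adjusted p = 0.00656), and Ephx1, an epoxide hydrolase, fell by 1.22 (adjusted p = 0.00226) and by 0.86 (adjusted p = 0.00997). Nqo1, a quinone reductase named here after its value was seen, fell by 0.54 in ALI (adjusted p = 0.0342).

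Selenoproteins other than those above, with the genes that make them, gave 1 higher and none lower of 19 tested in ALI. They gave 6 higher and none lower in SJY. For this list and the next, the shares of all genes were 8.02% higher and 9.56% lower in ALI. In SJY against control they were 14.6% and 18.1%. Msrb1, a methionine sulfoxide reductase, rose by 0.96 in ALI (log2; adjusted p = 0.000216) and by 1.39 in SJY (adjusted p = 3.25e-06), and Selenom, of the endoplasmic reticulum, rose by 0.76 in SJY (adjusted p = 0.00914). The list for the repair of protein disulfides and methionine also held metallothioneins, which are not repair enzymes. Of its 15 genes, 6 were higher and 1 lower in ALI, and 5 were higher and 2 lower in SJY. The largest rises were those of Mt2A (4.14 in ALI, adjusted p = 4.76e-05, and 4.10 in SJY, adjusted p = 2.61e-05) and Mt1 (2.96, adjusted p = 5.91e-05, and 3.001, adjusted p = 2.75e-05), metallothioneins that bind zinc and are close copies that can share reads. Msrb3 fell by 0.50 (adjusted p = 0.0211) and by 0.63 (adjusted p = 0.00329), and Msra, another methionine sulfoxide reductase, fell by 0.92 in SJY (adjusted p = 0.0112). In SJY against ALI limma called no gene of these 5 lists. Without ALI 1 it called 4 of them, where 1.35% of all genes was called (0.885% higher and 0.461% lower). Taldo1, Hmox1 and Msrb1 were higher and Sesn1 was lower. Without ALI 1, the genes called lower in SJY against control went from 3 to 5 in glutathione supply and from 0 to 1 in NADPH supply. They went from 5 to 6 in the NRF2 list, from 0 to 2 among the selenoproteins and from 2 to 5 in the repair list. Those called higher went from 6 to 7 in NADPH supply, from 2 to 3 in the NRF2 list and from 5 to 6 in the repair list. They stayed at 4 in glutathione supply and at 6 among the selenoproteins. Of all genes 44.3% were called in SJY against control without ALI 1, 26.5% lower and 17.8% higher. In SJY against ALI with all libraries kept, 11.8% of all genes passed in limma at an unadjusted p under 0.05. Of these lists, 1 of the 16 genes of glutathione supply passed and 5 of the 15 of NADPH supply. So did 2 of the 17 of NRF2, 3 of the 19 selenoprotein genes and 2 of the 15 genes of the repair list.

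The 15 genes that were not tested were Gsta2, Gsta5, Gstm3, Ggta1l1, Gpx5 and Gpx6, listed at 0 in every library, and Gstm3l, Gstm5, Gstm6, Gstm6l, Gstt4, Ggt6, Gpx4, Txndc2 and Txndc8. Where the steps of the values gave whole fragments (within 0.1), Gstm5 had at most 8 in any library and 35 in all, Ggt6 at most 8 and 22, Gstm6 at most 8 and 20, and Txndc8 at most 2 and 3. Gpx4, the peroxidase that acts on lipid peroxides in membranes and is used by most cells, was listed at 0 to 0.13 FPKM, at most 3 fragments in a library and 14 in all. A value so low for such a gene may be a failed estimate, so these low values are not read as absence. Of the 59 tested genes, 54 reached 1 FPKM in all 15 libraries, and Gstcd, Ggt7, Gsta3, Gsto2 and Gstt2 were under it in at least 1.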

How the data were processed

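Each group held 5 libraries of rat lung. Per the labels' protocols, RNA was extracted with TRIzol and sequenced from libraries of a NEBNext Ultra RNA kit. Cutadapt, HISAT2 and StringTie were used with the build Rnor_6.0, per the submitters' processing notes; versions and strand setting are not given in the sources used here. Per the file headers, the deposited values are FPKM, 1 column per library, for 22250 genes. A value of 0 may be a failed estimate.

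From these, log2(FPKM + 1) was taken, and the 13457 genes with at least 1 FPKM in 5 or more of the 15 libraries were fitted with limma 3.58.1 in R 4.3.3 (lmFit, eBayes with trend and robust settings), all 3 groups in 1 fit, two-sided. A gene counted as called where its p, adjusted over all genes tested by Benjamini-Hochberg, was under 0.05. Fold changes are on the log2(FPKM + 1) scale, which understates those of low genes. The script was tested on simulated data. Means ± SD are of FPKM, and SEs are limma's.

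FPKM holds no counts, but low values were whole multiples of the value of 1 fragment (tolerance 0.1 fragments), which gave relative depth only. Close paralogs can share reads, and without a stated strand setting neither can reads of overlapping genes on opposite strands be told apart. Genes are named by the deposited symbols; 8 of the 74 symbols are also older names of other genes in RefSeq, and no promoter was matched to these. Promoter windows are from RefSeq (GRCr8), read with Python 3.11.15, and no protein sequences were used.

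The enzymes, the gene lists and the tests were chosen with earlier results of these data known. Every gene the rule took is accounted for. Values in every library are given for called enzymes with the largest changes and for the most abundant of a family. From each pathway list, up to 2 called genes per direction and comparison with the largest change are named. 1 gene that this rule takes is not reported here. Alternatives were median-of-ratios scaling, a minimum mean of 5 FPKM, no filter on low values, a pseudocount of 0.1, limma without trend and robust settings, array weights, a fit of only the groups compared, the replicate number as a block, and leaving out each library. Leaving out ALI 1 for SJY against control, and leaving out ALI 1 and SJY 1 together, were chosen after seeing the data.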

Additional observations from a re-analysis of the deposited data

Results flagged for a closer look

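In each group the highest or lowest of the 5 libraries was compared with the others by Dixon's test (gap to the nearest library over the range, above 0.71). Of 177 group tests of the 59 enzyme genes, 20 stood out, and chance flags about 1 in 20 groups. ALI 1 accounted for 9, SJY 1 for 5, control 4 for 4, and control 5 and control 8 for 1 each; no other library was named by the test.

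ALI 1 was the highest ALI library for the dismutase Sod2 (1771 FPKM), the peroxiredoxin Prdx5 (756.4 FPKM), the glutaredoxin Glrx (257.5 FPKM), the mitochondrial thioredoxin Txn2 (86.14 FPKM) and Txnl1 (67.5 FPKM). It was the lowest for the transferases Gstm7 (18.66 FPKM) and Gstk1 (4.277 FPKM), for Ggta1 (20.62 FPKM) and for Prdx4 (19.59 FPKM). SJY 1 was the highest SJY library for Txn1 (695.3 FPKM), Txndc17 (60.08 FPKM), Gpx7 (40.74 FPKM) and Txnl4a (18.09 FPKM), and the lowest for Txndc16 (4.472 FPKM). Control 4 was the highest control for Txn1 (374.0 FPKM), Prdx5 (194.4 FPKM) and Txndc17 (33.86 FPKM) and the lowest for Txndc5 (52.64 FPKM). Control 5 was the highest control for Gpx3 (1146 FPKM) and control 8 for Ggt1 (4.236 FPKM).

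In Txn1 and Txndc17 control 4 and SJY 1 each stood above the rest of their group, and in Prdx5 control 4 and ALI 1 did.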

How the results depend on the processing

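No called difference changed direction under any alternative. With array weights, 10 enzymes were called in SJY against ALI (8 higher, 2 lower; 3.55% of all genes), and 39 in SJY against control, 12 of them lower (56.9% of all genes). Fitting only SJY and control gave 34, 12 of them lower (43.7% of all genes), and fitting only ALI and control gave 14 (9 higher, 5 lower; 9.90% of all genes) in place of 20. Without ALI 1, 5 were called in SJY against ALI (3 higher, 2 lower), and in SJY against control 36, 11 of them lower (44.3% of all genes). Without ALI 1 and SJY 1, 2 were called in SJY against ALI (1 higher, 1 lower), and in SJY against control 35, 10 of them lower (41.8% of all genes). The cause was not tested. Leaving out 1 library at a time gave 14 to 25 calls in ALI against control (9 to 16 higher, 5 to 10 lower), 0 to 5 in SJY against ALI (0 to 3 higher, 0 to 2 lower) and 21 to 36 in SJY against control (16 to 25 higher, 5 to 11 lower). Of the calls in ALI 14 of 20 held in all of them, and of those in SJY against control 20 of 25. Scaling, pseudocount, filters and the limma settings left each total within 1.5 times.

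With the replicate number as a block, 4 enzymes were called in ALI against control (2.33% of all genes), Sod2 and Ggt1 higher and Prdx6 and Gsta1 lower. The other 16 ALI calls were lost, Prdx5, Glrx, Gsto1, Gsta4, Gstt3 and Prdx2 among them. In SJY against control 13 were called (11 higher and 2 lower, with 8.49% of all genes), and in SJY against ALI 0. The 12 SJY calls lost were Sod1, Glrx2, Txn2, Gpx7, Gpx8, Prdx3, Txn1, Gsta1, Glrx3, Gsta4, Txnl4a and Gsta3. Same-numbered libraries correlated from -0.389 to 0.302 in their deviations from the group means. The labels do not say what a number marks, so whether it stands for a shared animal or batch cannot be told. In SJY and ALI 4 of 8 libraries correlated best with their own number, in SJY and control 5 of 6, and in ALI and control 1 of 4. With 5 libraries a group and no counts, the precision of low genes is not known.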
